A study of Mus musculus with 12 samples.

Results

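Voltage-gated potassium, sodium and calcium channels set the excitability of neurons, and their genes are described here in neurons grown from mouse embryonic stem cells and in embryonic mouse brain. The genes were taken by name: every array probe whose gene name begins with Kcn, Scn or Cacn and follows the patterns of the channel families was included. This gave 131 genes of the 35831 genes on the array, represented by 187 probes of 60 bases each. The name pattern also takes in potassium channels that are not opened mainly by voltage, namely the inward rectifiers (Kcnj), the leak channels with 2 pore domains (Kcnk) and the calcium- or sodium-activated channels (Kcnn, Kcnt), so the genes are reported by class. The sodium channel gene Scn2a lies outside the pattern on this array and is given separately.

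Sodium channels open on depolarisation and drive the upstroke of the action potential, potassium channels repolarise the membrane and set its resting level, and calcium channels couple depolarisation to transmitter release and to gene activity. Each pore-forming subunit works with accessory proteins: beta subunits for sodium channels, alpha2delta, beta and gamma subunits for calcium channels, and Kcnab, Kcne, Kcnip and Kcnmb proteins for potassium channels. In the embryonic brain these genes are switched on as progenitors leave the cell cycle and become neurons. Inward rectifiers are also known from glia, vessels and other supporting cells.

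The study grew mouse embryonic stem cells of 129/Ola background (male) into neurons for 16 days and profiled 8 culture samples together with 4 tissues of E15 embryos, each on a one-colour array. All cultures received the WNT inhibitor 53AH at 2.5 µM and the BMP inhibitor LDN193189 at 0.25 µM from day 0, so no culture was free of both inhibitors. In CHIR_8-16 the inhibitors were given to day 8 and were followed by CHIR, a GSK3 inhibitor that acts as a WNT agonist, at 3 µM from day 8 to day 16. In CHIR_11-16 the inhibitors were given to day 11 and CHIR followed from day 11 to day 16, with no dose given in the labels. WiBi_0-16 had the inhibitors to day 16, and WiBi_0-11 had them to day 11 and nothing afterwards. The labels call the cells of WiBi_0-11 isocortical and those of CHIR_8-16 hippocampal. Each of the 4 culture groups had 2 samples, and each sample was RNA pooled from 3 sets of experiments. The embryonic tissues were hippocampus, ventral telencephalon, midbrain and cortex of Sv129s6 embryos of mixed sex, with 1 array each.

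Between 59.1% and 71.2% of spots were well above background on each array by the scanner software's own call, and no spot was saturated. A level below is the log2 of the background-subtracted signal minus the log2 of that array's 75th percentile signal, which lay between 629 and 1130. Levels were compared between samples and never between genes. All 10 neuronal markers examined (among them Tubb3, Map2 and Rbfox3) were well above background on all 8 culture arrays. The 4 embryonic arrays shared slide 1, all culture samples numbered replicate 1 shared slide 2, and all numbered replicate 2 shared slide 3, so cultures and embryonic tissue cannot be told apart from their slides. Samples on one slide deviated together from their group means, with correlations across all genes between 0.579 and 0.667 over the 6 pairs of culture groups. Each comparison was therefore fitted with limma both without and with the slide as a block, over 25538 genes, and adjusted p-values run over all of them. With 2 pooled samples in each group, the p-values between single groups speak only of how those pools vary. Where agonist cultures are set against inhibitor-only cultures, 2 treatment groups are merged under 1 mean on each side. The spread in that fit, and each SD over 4 arrays, therefore also holds the difference between the merged groups. The small number of arrays limits the precision of all these p-values.

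Most of the channel repertoire was measurable in the cultures. Of the 131 genes, 95 were well above background on all 8 culture arrays (72.5%, against 62.9% of all genes), and 15 were well above background on none (11.5%, against 18.6% of all genes). In the embryonic tissues 103 were well above background on all 4 arrays and 12 on none. A gene entered the culture comparisons if both arrays of some culture group showed a probe of it well above background, and 24 channel genes did not.

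Detection differed between classes. Among the calcium pore subunits, 8 of 10 genes passed the filter, including the P/Q-type pore Cacna1a, the N-type Cacna1b, the L-type Cacna1c and Cacna1d and the T-type pores Cacna1g, Cacna1h and Cacna1i. The R-type pore Cacna1e did not pass. All 4 alpha2delta, all 4 calcium beta and all 8 gamma genes passed. For sodium, 6 of 9 pore subunits and all 4 beta subunits passed, and the pores Scn7a, Scn9a and Scn10a, known from peripheral sensory neurons among other cells, did not. Among voltage-gated potassium pores 28 of 30 passed, and among their electrically silent partners, which modify other pores, 6 of 10 did. In the potassium accessory class 9 of 15 passed, the same share as among the silent partners and the lowest of the classes, and 5 of its genes were well above background on no culture array. Of the inward rectifiers 11 of 15 passed, of the 2-pore-domain channels 13 of 14, and of the ion-activated channels 6 of 8.

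The broadest comparison set the 4 cultures given the agonist (CHIR_8-16 and CHIR_11-16) against the 4 given inhibitors only (WiBi_0-16 and WiBi_0-11). The inhibitor period differs as well, to day 8 or 11 in the agonist cultures and to day 11 or 16 in the others. Agonist and length of inhibition therefore cannot be told apart in this comparison. With the slide as a block, 4 channel genes fell and 1 rose in the agonist cultures at an adjusted p below 0.05. Kcnip4, Kcnk3, Kcnj9 and Kcnh2 fell, and Kcnt2 rose. These 5 were 4.67% of the channel genes tested, against 3.21% of all genes (820 of 25538). Without the block no channel gene passed, against 0.00783% of all genes (2 of 25538); the smallest adjusted p among the channel genes was then 0.066, and 27 of them had an unadjusted p below 0.05 (25.2%, against 15.3% of all genes). When any one of the 8 arrays was left out of the blocked fit, no channel gene passed, and of all genes at most 3 did. In pooled tissue and culture RNA, fewer cells of one type and less RNA per cell cannot be told apart.

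The probes behind these 5 genes are shown because each value below is the brightness of that probe. The first 30 of their 60 bases, as the array files give them with mm9 positions, are written in lower case.
Kcnip4, chr5:48780889-48780948 (minus strand): tttacgactgtctgcaacaataaatcaggt
Kcnk3, chr5:30927090-30927149 (plus strand): ctgggaaatccttaggtggaaggaatctgg
Kcnj9, chr1:174252224-174252283 (minus strand): tcctgccacagaagcaagaagcagaggaaa
Kcnh2, chr5:23825407-23825466 (minus strand): tgatgactatgaataataaataattatcct
Kcnt2, chr1:142506210-142506269 (plus strand): ttccaaacagtgaacccagtaggaaaaaca
Whether a probe lies in a coding exon or an untranslated region was not looked up here.

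Kcnip4 encodes a calcium-binding protein that attaches to Kv4 potassium channels and adjusts their gating. Its level was -1.61 and -1.46 in CHIR_8-16, -1.02 and -0.84 in CHIR_11-16, -0.34 and -0.06 in WiBi_0-16, and 0.23 and -0.24 in WiBi_0-11. All 4 agonist arrays lay below all 4 inhibitor-only arrays, with the CHIR_8-16 pair lowest. The mean was -1.23 ± 0.36 in agonist cultures and -0.10 ± 0.25 in inhibitor-only cultures (SD, n = 4 each), a log2 difference of -1.13 (SE 0.215 with the block; adjusted p = 0.0462 with the block and 0.0834 without). The difference was -1.26 on slide 2 and -1.001 on slide 3. A second Kcnip4 probe, which was above background on 6 of the 8 arrays, gave -1.74.

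Kcnk3 encodes TASK-1, an acid-sensitive leak channel that helps to hold the resting potential. Its level was -1.16 and -1.04 in CHIR_8-16, -1.003 and -0.82 in CHIR_11-16, -0.05 and 0.14 in WiBi_0-16, and 0.05 and -0.26 in WiBi_0-11. The groups did not overlap, and within each side the arrays lay close together. The mean was -1.01 ± 0.14 in agonist cultures and -0.03 ± 0.17 in inhibitor-only cultures (SD, n = 4 each), a log2 difference of -0.98 (SE 0.128; adjusted p = 0.0369 with the block and 0.066 without). It was -1.08 on slide 2 and -0.87 on slide 3.

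Kcnj9 encodes GIRK3, a subunit of the inward rectifiers that G proteins open. Its level was -1.22 and -2.00 in CHIR_8-16, -1.08 and -1.35 in CHIR_11-16, -0.34 and -0.55 in WiBi_0-16, and -0.56 and -0.79 in WiBi_0-11. Again every agonist array lay below every inhibitor-only array. The log2 difference was -0.85 (SE 0.169; adjusted p = 0.0478 with the block and 0.121 without), from means of -1.41 ± 0.41 in agonist cultures and -0.56 ± 0.18 in inhibitor-only cultures (SD, n = 4 each). Kcnj6, which encodes the partner subunit GIRK2, had means of -5.28 ± 0.22 in agonist cultures and -4.61 ± 0.26 in inhibitor-only cultures (SD, n = 4 each), short of the threshold (adjusted p = 0.0684 with the block); it was above background on 6 of the 8 arrays.

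Kcnh2 encodes ERG1, a voltage-gated potassium pore best known from the heart that is also present in neurons. Its level was -0.90 and -0.67 in CHIR_8-16, -0.87 and -0.76 in CHIR_11-16, -0.44 and -0.25 in WiBi_0-16, and -0.25 and -0.31 in WiBi_0-11. The ranges did not overlap, although the step between them was smaller than for the other 3 genes that fell. The log2 difference was -0.49 (SE 0.092; adjusted p = 0.0462 with the block and 0.103 without), from means of -0.80 ± 0.11 in agonist cultures and -0.31 ± 0.09 in inhibitor-only cultures (SD, n = 4 each).

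Kcnt2 encodes a sodium-activated potassium channel known as Slick. Its level was -3.07 and -3.60 in CHIR_8-16, -3.89 and -3.73 in CHIR_11-16, -4.23 and -4.75 in WiBi_0-16, and -4.72 and -4.61 in WiBi_0-11. It was the only one of the 5 that was higher in the agonist cultures, on all 4 of their arrays. The log2 difference was 1.005 (SE 0.197; adjusted p = 0.0472 with the block and 0.0941 without), from means of -3.57 ± 0.36 in agonist cultures and -4.58 ± 0.24 in inhibitor-only cultures (SD, n = 4 each). A second Kcnt2 probe, above background on only 1 of the 8 arrays and so below the detection filter, gave -1.05.

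**Figure D1:**
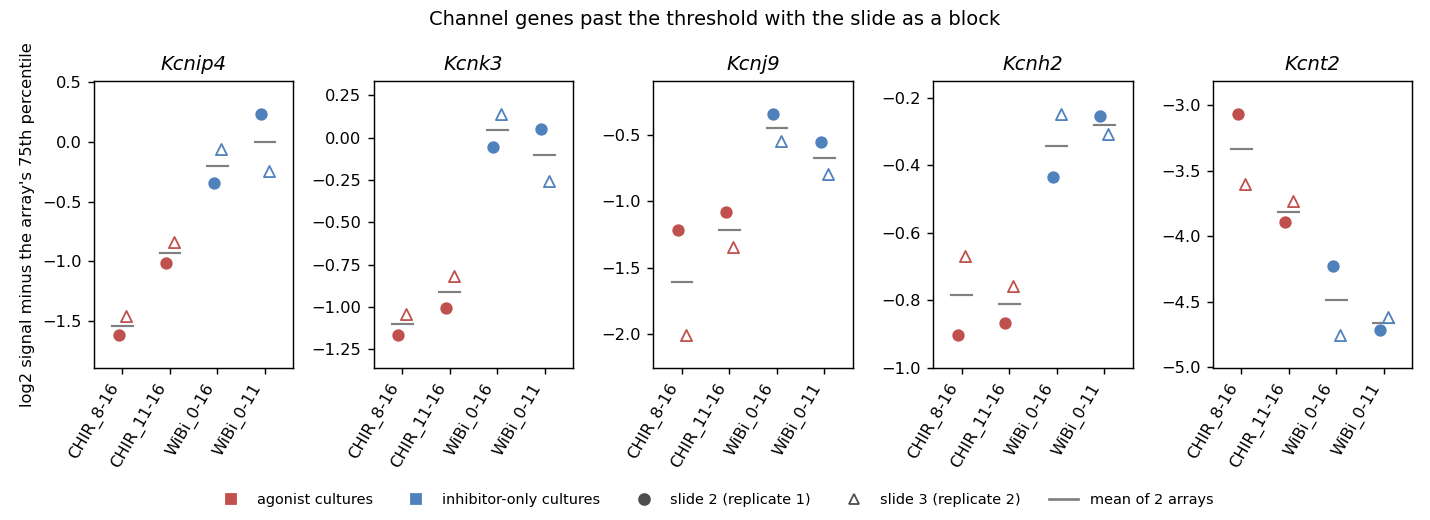
Level of the 5 channel genes past the threshold with the slide as a block (y axis, log2 relative to each array's 75th percentile) in the 8 culture samples, grouped by treatment; circles are arrays of slide 2, triangles arrays of slide 3, and short lines the mean of 2 arrays. Kcnip4, Kcnk3, Kcnj9 and Kcnh2 lie lower on all 4 agonist arrays than on the 4 inhibitor-only arrays, and Kcnt2 lies higher.

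Because the treatments act on WNT signalling, the promoters of the gene with the largest rise and the gene with the largest fall among those past the threshold are shown. Nuclear WNT signals are carried by TCF/LEF factors, whose core site contains CTTTGA or CTTTGT. The 250 bases before each RefSeq start (GRCm38.p6) are given 5′ to 3′ on the gene's strand, and Kcnip4 has 2 entries of those used here.
Kcnt2, chr1:140245468-140245717 (plus strand): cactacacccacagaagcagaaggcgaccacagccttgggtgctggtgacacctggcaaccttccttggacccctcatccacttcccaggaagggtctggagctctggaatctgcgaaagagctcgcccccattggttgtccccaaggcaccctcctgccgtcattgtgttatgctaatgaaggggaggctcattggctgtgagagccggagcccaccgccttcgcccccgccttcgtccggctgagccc
Kcnip4, chr5:49285660-49285909 (minus strand): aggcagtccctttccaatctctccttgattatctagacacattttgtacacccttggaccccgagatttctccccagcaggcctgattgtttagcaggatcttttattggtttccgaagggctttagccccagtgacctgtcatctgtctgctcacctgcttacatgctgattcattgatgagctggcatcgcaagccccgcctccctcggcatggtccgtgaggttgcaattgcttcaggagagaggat
Kcnip4, chr5:48599683-48599932 (minus strand): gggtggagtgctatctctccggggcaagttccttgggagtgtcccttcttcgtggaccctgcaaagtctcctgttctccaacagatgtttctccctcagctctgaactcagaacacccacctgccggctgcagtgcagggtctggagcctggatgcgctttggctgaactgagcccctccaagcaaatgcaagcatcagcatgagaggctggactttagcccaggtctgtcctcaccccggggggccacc
Neither set of core letters is in these 3 windows on either strand, which is why no base is in capitals, nor in the windows of Kcnj9 and Kcnh2. One or the other is in 27.6% of all 32851 promoter windows (13.8% hold CTTTGA and 16.5% hold CTTTGT) and in 21.4% of the 131 windows of channel genes. RefSeq windows were found for 96 of the 131 channel genes. A match or its absence describes these letters in these windows only.

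Across all channel genes tested, the agonist cultures tended to the lower side. The log2 difference was below 0 for 81 genes and above 0 for 26, with a median of -0.21, against 0.00 for all genes. On slide 2 alone the median was -0.24 and on slide 3 alone it was -0.23. Both slides gave a lower level for 69 genes (64.5%, against 33.8% of all genes). For 16 channel genes all 4 agonist arrays lay below all 4 inhibitor-only arrays (14.95%, against 5.56% of all genes), and for 4 they lay above (against 6.72% of all genes). In the same cultures the summed level of the 10 neuronal genes, relative to the 75th percentile, was 299 to 332 with agonist and 340 to 361 with inhibitors only. Bright genes weigh most in such a sum, among them Stmn2 and Tubb3. Stmn2 was at 6.27 to 6.57 in agonist cultures and 6.75 to 6.84 in inhibitor-only cultures. Tubb3 went the other way with overlap, at 6.22 to 6.77 in agonist cultures and 6.085 to 6.44 in inhibitor-only cultures. Of the 10 genes 7 had a lower mean in agonist cultures and 3 a higher one. Their median log2 difference was -0.16, and none passed with or without the block. The part of the neuronal markers in the channel values was not tested.

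**Figure D2:**
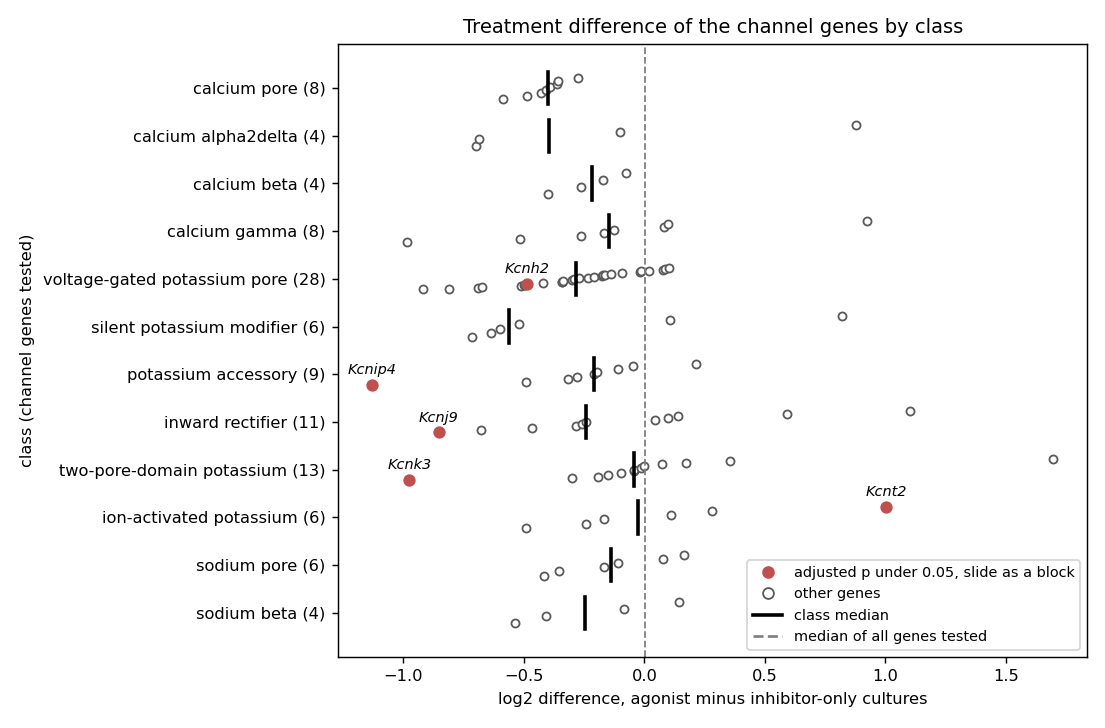
Log2 difference of each channel gene tested, agonist minus inhibitor-only cultures (x axis), by channel class (y axis); each point is a gene, filled where past the threshold with the slide as a block, short lines are class medians and the dashed line is the median of all genes. Calcium pores, calcium beta subunits and voltage-gated potassium pores lie mostly below 0, while the 2-pore-domain and ion-activated classes are centred near 0.

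Calcium channel genes were lower throughout their pore class in this pooled comparison. All 8 pore genes had a lower mean level in agonist cultures, on both slides, with a median difference of -0.40, and none passed the test. Against WiBi_0-11 alone, 6 of the 8 were lower in CHIR_8-16, 4 of them on both slides. In CHIR_11-16 against WiBi_0-11, 7 of the 8 were lower, 5 of them on both slides. The T-type pore Cacna1h, which opens at low voltages, had levels of 2.95 and 2.74 in CHIR_8-16, 2.92 and 2.77 in CHIR_11-16, 3.43 and 3.47 in WiBi_0-16, and 3.26 and 3.18 in WiBi_0-11. Its groups did not overlap and its difference of -0.49 fell just short of the threshold (adjusted p = 0.0536 with the block), while its second probe that passed the filter gave 0.12. Cacna1i, another T-type pore, differed by -0.59 (adjusted p = 0.0588 with the block), while its second passing probe gave only -0.058. The P/Q-type pore Cacna1a differed by -0.43 (adjusted p = 0.104 with the block), and its second passing probe gave -0.44.

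The calcium accessory subunits showed the same side with exceptions. All 4 beta genes, which bring the pore to the membrane, were lower, with a median of -0.22. Of the alpha2delta genes, which raise surface levels of the pore, Cacna2d2 averaged 2.59 ± 0.31 in agonist cultures and 3.28 ± 0.25 in inhibitor-only cultures (SD, n = 4 each), without overlap (adjusted p = 0.0911 with the block). Cacna2d3 was at 0.84 and 0.38 in CHIR_8-16 and between 1.85 and 2.08 on the other 6 culture arrays. Among the gamma genes, Cacng2, an AMPA receptor partner also called stargazin, was lower on all 4 agonist arrays (1.87 ± 0.24 in agonist cultures and 2.38 ± 0.16 in inhibitor-only cultures, SD, n = 4 each; adjusted p = 0.0694 with the block). Cacng5, of the same family, was higher on all 4 (0.20 ± 0.51 in agonist cultures and -0.72 ± 0.28 in inhibitor-only cultures, SD, n = 4 each; adjusted p = 0.0672 with the block). The skeletal muscle subunit Cacng1 had a difference of -0.99, but its groups overlapped.

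Among voltage-gated potassium pores 24 of 28 genes were lower, with a median of -0.28, and Kcnh2 was the one that passed. Kcnd3, a Kv4 pore of the fast A-type current and a partner of Kcnip4, was at 3.11 and 3.07 in CHIR_8-16, 3.41 and 3.28 in CHIR_11-16, 3.68 and 3.70 in WiBi_0-16, and 3.83 and 3.64 in WiBi_0-11. These groups did not overlap, and the difference of -0.50 had an adjusted p of 0.0542 with the block. A second passing Kcnd3 probe gave -0.19. Kcnd2, a second Kv4 pore, overlapped between groups and ran higher on slide 3 than on slide 2 within every group. Kcna1 was at -0.67 ± 0.20 in agonist cultures and -0.75 ± 0.31 in inhibitor-only cultures (SD, n = 4 each).

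The other potassium classes were mixed. Of 9 accessory genes 8 were lower, and the A-type partner Kcnip1 was among them, with a difference of -0.20 that overlapped. The silent partners had the lowest class median, -0.56 over 6 genes. Inward rectifiers were lower in 6 of 11 genes, the 2-pore-domain channels in 9 of 13 with a median of -0.04, and the ion-activated channels in 3 of 6 with a median of -0.03. The large-conductance calcium-activated pore Kcnma1 was lower on all 4 agonist arrays, 1.21 ± 0.20 in agonist cultures and 1.70 ± 0.20 in inhibitor-only cultures (SD, n = 4 each; adjusted p = 0.0971 with the block). The largest positive differences of all were those of the leak channel Kcnk5 (1.70) and the inward rectifier Kcnj16 (1.10), with adjusted p of 0.127 and 0.27 with the block, and both overlapped between groups.

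For sodium channels, 4 of 6 pores and 3 of 4 beta subunits were lower, and none passed. Scn3a, a pore of embryonic neurons, was at 3.39 and 3.35 in CHIR_8-16, 3.25 and 3.14 in CHIR_11-16, 3.80 and 3.60 in WiBi_0-16, and 3.61 and 3.54 in WiBi_0-11. Its 4 agonist arrays were all below the 4 inhibitor-only arrays by a small step, a difference of -0.35 (adjusted p = 0.0952 with the block). Scn8a and Scn1a overlapped, and each had passing probes of opposite sign. Scn2a, outside the name pattern, differed by -0.24 (adjusted p = 0.308 with the block).

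**Figure D3:**
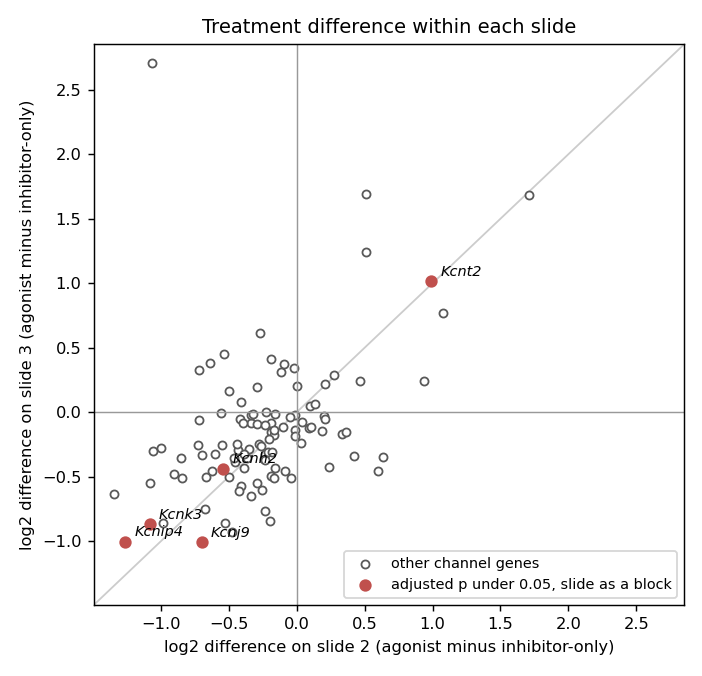
Log2 difference, agonist minus inhibitor-only cultures, on slide 2 (x axis) and on slide 3 (y axis) for each channel gene tested; the 5 genes past the threshold with the block are marked. Most points, 69 genes, lie in the lower left, where both slides give a lower level in agonist cultures.

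The pairwise comparisons share groups, so their values are given side by side and are not independent. In the comparison of CHIR_8-16 with WiBi_0-11, which sets the cultures labelled hippocampal against those labelled isocortical, no channel gene passed with or without the block, against 0.0117% of all genes without it (3 of 25538) and 0.309% with it (79 of 25538). The smallest adjusted p among channel genes was 0.204 without the block and 0.0635 with it, and 26 channel genes had an unadjusted p below 0.05 without it (24.3%, against 9.62% of all genes). Channel genes lay lower in 68 and higher in 39 cases, with a median of -0.14, against 0.05 for all genes; the channel median was -0.32 without replicate 2 of CHIR_8-16 and -0.07 without its replicate 1. The largest negative differences were those of the M-current pore Kcnq5 (-1.63), of Kcnip4 (-1.53) and of the fast potassium pore Kcnc2 (-1.42). Kcnq5 was at -3.41 and -3.78 in CHIR_8-16 and at -1.58 and -2.35 in WiBi_0-11. Kcnc2 was at -5.11 and -3.99 in CHIR_8-16 and at -3.21 and -3.04 in WiBi_0-11. The largest positive differences were those of Kcnt2 (1.33), Cacng5 (1.07) and Cacna2d4 (1.06). The adjusted p of these 6 genes lay between 0.0635 and 0.187 with the block. In the same comparison the 7 inhibitory neuron markers summed to 14.6 to 29.5 in CHIR_8-16 and 35.6 to 46.5 in WiBi_0-11, where Gad1 fell with the block (adjusted p = 0.0473, against 0.209 without). Of the 8 oligodendrocyte lineage markers 7 had a lower mean in CHIR_8-16, and Gpr17, Olig1 and Olig2 fell with the block, while their summed level was 66.0 to 217 in CHIR_8-16 and 61.5 to 87.4 in WiBi_0-11. Gjb6 of the astrocyte markers also fell with the block, and that list summed to 3.57 to 11.4 in CHIR_8-16 and 11.4 to 13.9 in WiBi_0-11. Mesenchyme and bone markers summed to 1.46 to 3.95 in CHIR_8-16 and 11.6 on both WiBi_0-11 arrays, and 4 of the 5 tested had a lower mean. Of these Ibsp fell with and without the block (adjusted p = 0.0131 and 0.0380) and Col3a1 with the block. Without the block the adjusted p of Gpr17, Olig1, Olig2, Gjb6 and Col3a1 lay between 0.183 and 0.247. The part of these cells in the channel values was not tested.

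CHIR_11-16 was compared with WiBi_0-11, the group that had the same inhibitor period and no agonist. No channel gene passed, against 0% of all genes without the block and 0.0117% with it (3 of 25538), and 8 channel genes had an unadjusted p below 0.05 without it (7.48%, against 4.70% of all genes). The channel median was -0.14, against -0.01 for all genes. Cacna2d2 had the largest negative difference: it was at 2.32 and 2.44 in CHIR_11-16 and at 3.62 and 3.30 in WiBi_0-11, a log2 difference of -1.08 (adjusted p = 0.262 with the block). Kcng2, a silent partner, followed with -1.02 and Kcnip4 with -0.92. Kcnk5 (0.99), the 2-pore-domain gene Kcnk7 (0.97, above background on 1 of 2 WiBi_0-11 arrays) and Kcnt2 (0.85) had the largest positive differences. Neuronal markers summed to 299 to 321 in CHIR_11-16 and 342 to 361 in WiBi_0-11, and mesenchyme and bone markers to 3.08 to 6.58 in CHIR_11-16 and 11.6 on both WiBi_0-11 arrays. None of them passed, and their part in the channel values was not tested.

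Longer inhibition, WiBi_0-16 compared with WiBi_0-11, also gave no channel gene past the threshold, against 0% of all genes without the block and 0.0117% with it (3 of 25538). No channel gene had an unadjusted p below 0.05 without the block (against 2.62% of all genes), and 3 did with it (2.80%, against 10.8% of all genes). The channel median was 0.05, against 0.00 for all genes. All 8 calcium pore genes had a higher mean in WiBi_0-16, with a class median of 0.31. In the same comparison all 8 progenitor markers had a lower mean in WiBi_0-16, with summed levels of 197 to 267 in WiBi_0-16 and 273 to 358 in WiBi_0-11, and none passed. Astrocyte markers summed to 4.55 to 8.08 in WiBi_0-16 and 11.4 to 13.9 in WiBi_0-11, and mesenchyme and bone markers to 4.56 to 5.34 in WiBi_0-16 and 11.6 on both WiBi_0-11 arrays. Their part in the channel values was not tested. The largest differences as measured belonged to dim genes. Kcnk7 was at -5.32 and -3.58 in WiBi_0-16 and at -5.51 and -6.44 in WiBi_0-11, but only 1 of the WiBi_0-11 arrays measured it above background, so its difference of 1.53 rests in part on a value below background. Cacng1 (1.06), also above background on only 1 WiBi_0-11 array, and the epithelial inward rectifier Kcnj13 (0.81) followed. On the lower side were Kcnk5 (-1.51, above background on 1 of 2 WiBi_0-16 arrays), Kcnj16 (-1.16) and Kcnq5 (-0.53).

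The timing of the agonist was addressed by CHIR_8-16 compared with CHIR_11-16, where the inhibitor period differs as well. No channel gene passed, against 0% of all genes without the block and 0.00783% with it (2 of 25538), and 9 channel genes had an unadjusted p below 0.05 without it (8.41%, against 3.82% of all genes). The channel median was -0.01, against 0.03 for all genes. Kcnh1, the voltage-gated pore EAG1, was not well above background on either CHIR_8-16 array and was at -4.56 and -3.80 in CHIR_11-16, which bounds its log2 difference at -1.19 or lower (adjusted p = 0.133 with the block). Kcnq5 differed by -1.35 and Cacna2d3 by -1.31, the second from 0.84 and 0.38 in CHIR_8-16 and 1.99 and 1.85 in CHIR_11-16. The largest positive differences were those of Kcng2 (1.39), the sodium beta subunit Scn3b (1.04) and Cacna1b (0.86, above background on 1 of 2 arrays in each group). The value for Scn3b rested on 1 array: it was at 5.74 and 3.25 in CHIR_8-16 and at 3.68 and 3.22 in CHIR_11-16, and without replicate 1 of CHIR_8-16 its difference was -0.20.

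Other genes of the same systems were read beside the channels in the comparison of agonist with inhibitor-only cultures. Of 29 partner and axon initial segment genes tested, 22 were lower, with a median of -0.31. With the block 1 of them rose, the adhesion protein Cntn2 (log2 difference of 2.27, adjusted p = 0.039), and 2 fell, the adhesion protein Cntn1 (-0.48, adjusted p = 0.0462) and the sodium leak channel partner Unc80 (-0.86, adjusted p = 0.0443). Among the 13 ion pumps and chloride transporters 12 were lower, with a median of -0.31, and the sodium pump subunit Atp1b2 fell (-0.76, adjusted p = 0.042 with the block). Of 16 other voltage-gated or related channels tested, such as the Hcn and Cng genes, 9 were lower, with a median of -0.02 and none past the threshold. None of these 4 genes passed without the block, where their adjusted p lay between 0.0764 and 0.129. These lists were chosen with earlier results of these data known.

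Markers of other cell types were read in the same comparison. All 7 inhibitory neuron markers had a lower mean in agonist cultures, and none passed the threshold. Their summed level was 14.6 to 46.5 in agonist cultures and 35.6 to 49.0 in inhibitor-only cultures. Against WiBi_0-11, 6 of the 7 were lower in CHIR_8-16 (median of -2.45), but only 3 of the 7 in CHIR_11-16 (median of 0.19). Of 8 oligodendrocyte lineage markers 7 had a lower mean, and Gpr17 and Olig1 fell with the block, while their summed level was 41.6 to 217 in agonist cultures and 61.5 to 89.3 in inhibitor-only cultures. The 6 astrocyte markers summed to 3.57 to 11.4 in agonist cultures and 4.55 to 13.9 in inhibitor-only cultures, and S100b rose with the block while the other 5 had lower means, for a list median of -0.31. Mesenchyme and bone markers summed to 1.46 to 6.58 in agonist cultures and 4.56 to 11.6 in inhibitor-only cultures. Of the 8 progenitor markers 7 had a higher mean in agonist cultures, with a median difference of 0.25 and none past the threshold, and their summed level was 193 to 349 in agonist cultures and 197 to 358 in inhibitor-only cultures. Excitatory neuron markers summed to 35.5 to 58.9 in agonist cultures and 39.5 to 53.2 in inhibitor-only cultures. Of the 8 muscle markers 4 were above background on all 8 culture arrays (Myod1, Acta1, Myh6 and Acta2), and Myog and Tnnt2 were on none. Among the 5 tested Myh3 rose with the block, and their summed level was 0.276 to 0.451 in agonist cultures and 0.287 to 0.379 in inhibitor-only cultures. Gpr17, Olig1, S100b and Myh3 had adjusted p between 0.0764 and 0.101 without the block. Vessel markers summed to 3.84 to 8.85 in agonist cultures and 4.50 to 8.02 in inhibitor-only cultures. The part of these cells in the channel values was not tested.

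The 2 samples of each culture group lay on different slides, and slide 3 compared with slide 2 showed how far channel genes moved between them. Of the channel genes tested 32 passed in limma (29.9%, against 34.4% of all genes), 22 higher and 10 lower on slide 3. The gamma subunit Cacng6 was at -0.31 on slide 3 and -1.80 on slide 2 on average (difference of 1.49, adjusted p = 0.00468). Kcng2 was higher by 1.17 (adjusted p = 0.00795), and the silent partner Kcns1 by 1.78 without passing (adjusted p = 0.276). On the lower side, the accessory gene Kcne2 differed by -1.12 (adjusted p = 0.00924), Kcnj13 by -0.94 (adjusted p = 0.00669), Cacng1 by -0.90 (adjusted p = 0.0407) and Scn3b by -0.98 without passing (adjusted p = 0.104). None of the 5 genes past the threshold between agonist and inhibitor-only cultures passed here, and the nearest was Kcnj9 (-0.37, adjusted p = 0.0822).

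The cultures were then set against the embryonic tissues, in the 122 channel genes well above background on at least 1 of the 12 arrays. For 18 genes all 8 culture arrays lay below all 4 embryonic arrays (14.8%, against 7.34% of all genes), and for 7 they lay above (5.74%, against 12.7% of all genes). The median difference was 0.00 for channel genes and 0.15 for all genes. Slide and sample type cannot be told apart here, and no test was made.

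When dim values were raised to the lowest signal called above background, 16 genes lay lower, since Kcnj2 and Kcne4, which no culture array measured above background, then overlapped. Inward rectifiers held 5 of the 18 genes that were lower as measured, Kcnj2 among them, of 14 in the class. The class as a whole was not lower: its median difference was 0.38, against 0.15 for all genes. Kcnj4 (1.68) and Kcnj9 (1.60) had higher means in the cultures, with overlap. Kcnj10, the glial inward rectifier Kir4.1, was at -5.26 to -4.54 in the cultures (median -4.91) and at 2.66 in hippocampus, 1.18 in ventral telencephalon, 1.38 in midbrain and 1.60 in cortex. Its mean was 98.0-fold lower in the cultures, with 7 of the 8 culture arrays still above background. Kcnj8, the Kir6.1 pore known from pericytes and smooth muscle, was well above background on no culture array and between -2.27 and -1.76 in the tissues, which made it at least 11.4-fold lower in the cultures. Beside it, the 7 endothelial and pericyte markers, one of which is Kcnj8 itself, summed to 3.89 to 8.90 in the cultures and 17.2 to 19.9 in the tissues, and 5 of the 7 were lower on all culture arrays. Microglia and blood markers summed to 0.99 to 1.69 in the cultures and 191 to 267 in the tissues, and 4 of the 6 were lower on all culture arrays. Most of the tissue sum came from the blood gene Hba-a1, at 7.44 to 7.95 in the tissues and -5.14 to -3.34 in the cultures. The microglial gene Csf1r overlapped, at 0.17 to 0.33 in the tissues and -0.13 to 0.60 in the cultures. Neuronal markers overlapped too, with sums of 299 to 361 in the cultures and 303 to 415 in the tissues. Astrocyte markers summed to 3.57 to 13.9 in the cultures and 9.69 to 26.7 in the tissues, and 0 of 6 were lower on all culture arrays. Oligodendrocyte lineage markers summed to 41.6 to 217 in the cultures and 46.4 to 73.1 in the tissues, and 2 of 8 were lower on all culture arrays. The part of vessels, blood, microglia and other glia in the channel values was not tested.

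Pores and partners of other classes were also lower in the cultures. Kcnc2 was at -5.11 to -3.04 in the cultures and at -1.04 to -0.80 in the tissues, a mean difference of -2.79. Cacng3, an AMPA receptor partner, was at -4.61 to -3.30 in the cultures and at -2.27 to -0.73 in the tissues. Kcnk6, a 2-pore-domain gene, had a mean difference of -2.21. Kcnq1, Kcnj5 and the silent partner Kcns3 were above background on only 1, 3 and 1 of the 8 culture arrays and on all 4 tissue arrays.

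Of the 7 genes higher in the cultures, 2 were 2-pore-domain channels. Kcnk12 was at -1.28 on average in the cultures and -3.18 in the tissues (log2 difference of 1.90), and the acid-sensitive leak channel Kcnk9 at -2.81 in the cultures and -4.55 in the tissues (1.74). Cacna2d4 differed by 1.85, or by 1.33 when dim tissue values were raised to the lowest signal called above background, since only 1 tissue array measured it. Kcnh2 differed by 1.33, with the highest tissue value, -0.96 in midbrain, just below the lowest culture value, -0.90. Of the sodium beta subunits 2 of 4 were higher, Scn3b by 1.17 and Scn4b by 0.50, and the Kv2 pore Kcnb2 was higher by 0.55. No calcium pore (of 9) and no sodium pore (of 8) was separated from the tissues in either direction.

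**Figure D4:**
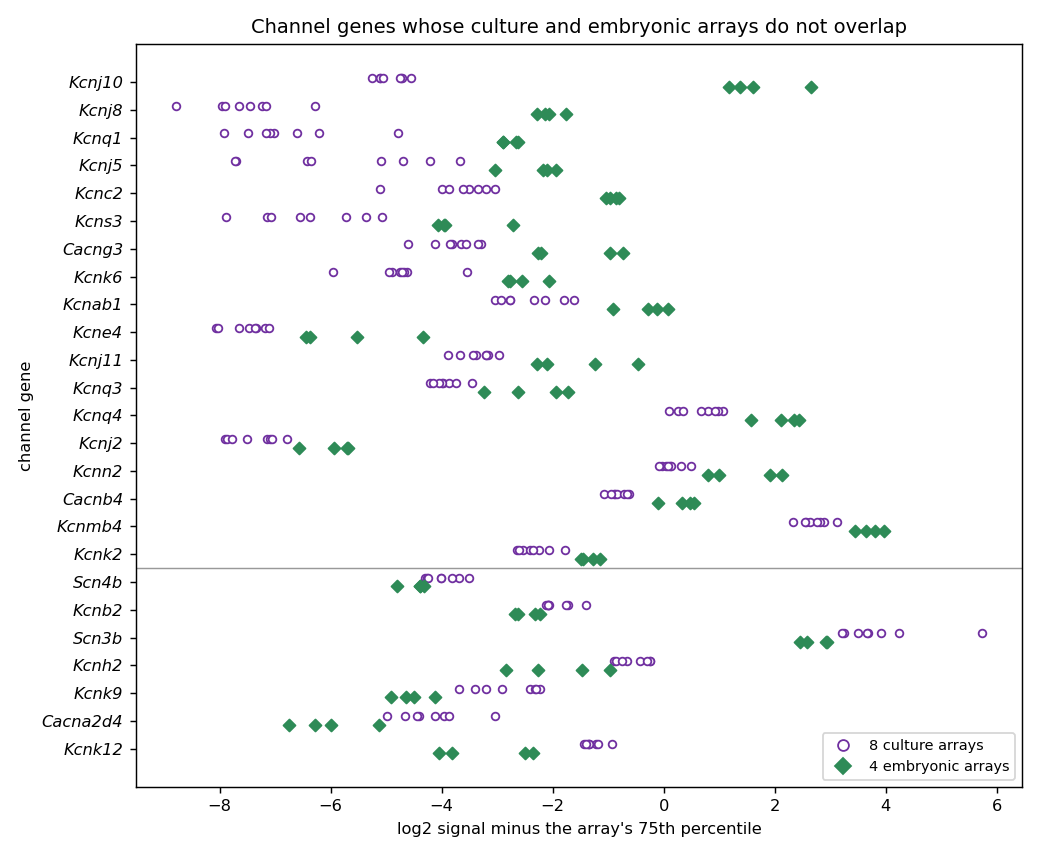
Level (x axis, log2 relative to each array's 75th percentile) of all 25 channel genes whose 8 culture arrays do not overlap the 4 embryonic arrays, those lower in the cultures above the line and those higher below it; circles are culture arrays and diamonds embryonic arrays. Kcnj10 and Kcnj8 show the widest gaps, with every culture array below every tissue array.

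Among the 4 embryonic tissues, 119 channel genes could be compared, with 1 array each and so without any test. In hippocampus compared with cortex 11 channel genes were at least 2-fold higher (9.24%, against 6.58% of all genes) and 14 at least 2-fold lower (11.8%, against 5.52%). Kcne2, an accessory subunit known from the choroid plexus, stood apart: it was at -0.50 in hippocampus and not well above background in cortex, at least 44.5-fold higher. Kcnj16 was at least 4.76-fold and Kcne4 at least 3.12-fold higher in hippocampus. The leak channel Kcnk1 was at 1.28 in hippocampus and -0.18 in cortex, and the calcium subunit Cacnb2 at -3.68 in hippocampus and -5.11 in cortex. Lower in hippocampus were the silent partner Kcnv1 (-2.89 in hippocampus and -0.83 in cortex), Kcnq5 (-2.92 in hippocampus and -1.02 in cortex) and the EAG pore Kcnh5 (-4.89 in hippocampus and -3.03 in cortex). Kcnk7 and Kcnab2 were above background in cortex only, at least 2.24-fold and 1.95-fold lower in hippocampus.

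Kcne2 and Kcnq5 can be read in the cultures whose labels name the same regions. Kcne2 was at -3.75 and -5.36 in CHIR_8-16 and at -4.08 and -5.10 in WiBi_0-11, so the groups overlapped. Kcnq5 was at -3.41 and -3.78 in CHIR_8-16, below the -1.58 and -2.35 of WiBi_0-11, without passing the test.

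In ventral telencephalon 29 channel genes were at least 2-fold higher than the mean of cortex and hippocampus (24.4%, against 7.46% of all genes), and 5 were lower (4.20%, against 6.28%). Kcnf1, a silent partner, was at -1.44 in ventral telencephalon, -4.48 in hippocampus and -4.04 in cortex. The inward rectifiers Kcnj4 and Kcnj12 were at 0.13 and -0.06 in ventral telencephalon, -2.89 and -3.06 in hippocampus and -2.19 and -2.31 in cortex. Kcnh1 and the sodium pore Scn10a were both at -3.27 in ventral telencephalon and not well above background in the other 2 tissues, each at least 6.26-fold higher. Lower were Kcna1, by a log2 of -1.27, the ATP-sensitive pore Kcnj11 (-1.26) and the calcium-activated channel Kcnn2 (-1.23). Kcne4 and Kcnk7 were also lower as measured, but ventral telencephalon did not measure them above background, so they have no fold here.

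In midbrain compared with the mean of the 3 telencephalic tissues 27 channel genes were at least 2-fold higher (22.7%, against 11.6% of all genes) and 11 at least 2-fold lower (9.24%, against 5.29%). Kcnip4 was at 1.70 in midbrain, -2.12 in hippocampus, 0.55 in ventral telencephalon and -1.59 in cortex. The fast potassium pore Kcnc4 was at 1.02 in midbrain, -2.84 in hippocampus, -0.46 in ventral telencephalon and -2.54 in cortex. Kcnj16 was higher by a log2 of 3.14 as measured, while the ERG pore Kcnh6, above background in midbrain only, was at least 2.15-fold higher. Kcne2 was higher than the telencephalic mean by 2.71 as measured, but hippocampus, at -0.50, lay above midbrain. That mean takes in the cortex value of -6.89, which was not well above background. Lower in midbrain were the ELK pore Kcnh3, at -1.65 in midbrain and between 0.80 and 1.51 in the other tissues, Kcnj4 (-2.17), the silent partner Kcng1 (-2.12), Kcna1 (-1.56) and Kcnk5 (-1.44).

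**Figure D5:**
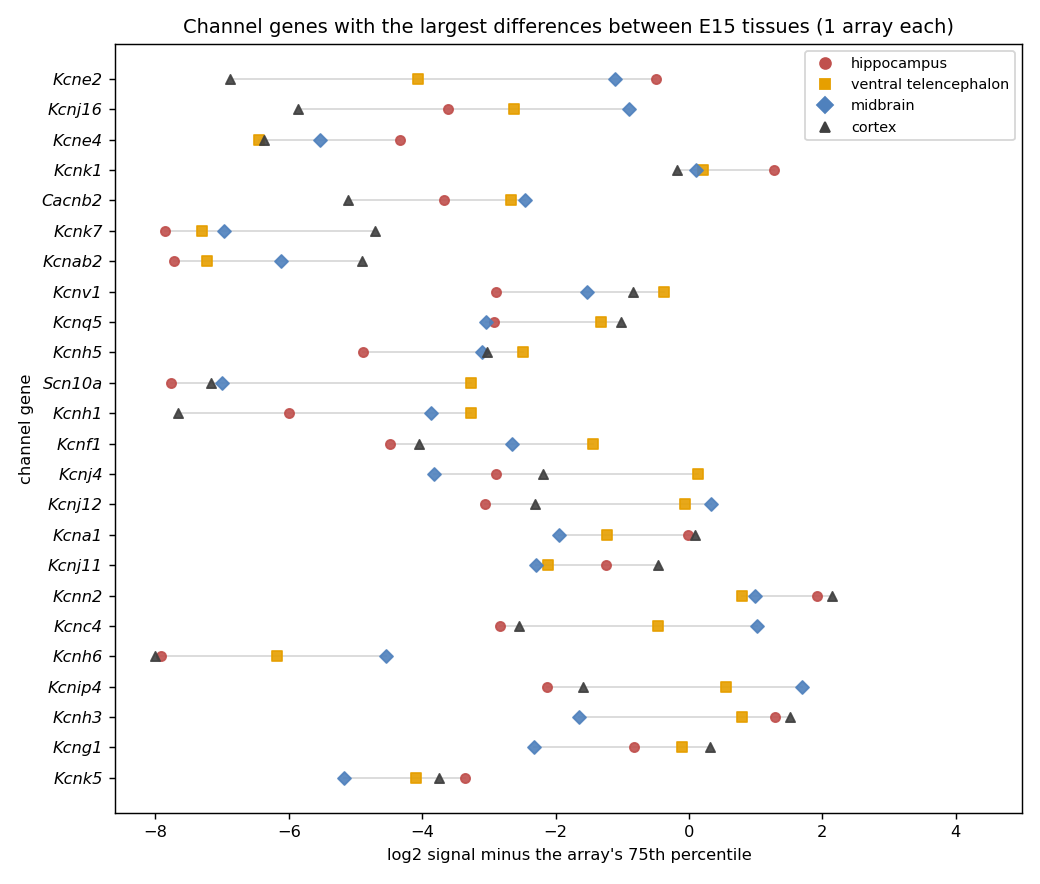
Level (x axis, log2 relative to each array's 75th percentile) of the channel genes named between embryonic tissues in hippocampus, ventral telencephalon, midbrain and cortex at E15; each point is 1 array, and values not well above background are drawn as measured. Kcne2 spans the widest range, from hippocampus at -0.50 to cortex at -6.89.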

How the data were processed

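RNA of 8 culture samples and 4 embryonic tissues was hybridised to one-colour Agilent mouse arrays. Spots were quantified with Agilent Feature Extraction, per the file headers, and the submitters' processing notes name Feature Extraction 9.1 and limma. The deposited intensity of a spot is its background-subtracted processed signal on a linear scale, per the file headers. The series table deposited by the authors holds log2 values of the same arrays, made by steps not given in the sources used here, and served as an alternative.

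From the intensities, the log2 processed signal minus the array's 75th percentile was computed over unmarked spots that are not controls, and spots of one probe were averaged. A probe passed if both arrays of some culture group showed it well above background and all 8 culture arrays had an unmarked spot of it. The brightest of the 36430 passing probes stood for each of 25538 genes. The 33 channel genes with several passing probes had a median range of 0.366 between them, and in 11 the signs differed. Accessions of 11 channel probes differ between files, and 4 probes of other names now assigned to a channel gene were kept apart. Gene names, probe sequences and mm9 positions come from the embryonic files.

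Linear models were fitted with limma 3.58.1 in R 4.3.3 over the 8 culture arrays, with Benjamini-Hochberg adjustment over all genes and a threshold of 0.05. The fit without a block was primary. Same-numbered samples share a slide and deviated together in all 6 pairs of groups (channel genes alone: r between 0.314 and 0.694), so the fit with the slide, which is the replicate number, as a block stands beside it. The median residual SD of channel genes was 0.341 without and 0.223 with the block. A value below background on every array of a group was given as a bound against the lowest signal called above background. The alternative with normexp (offset 50) used median spot signals, since the culture files hold no mean signal. The fits were tested on simulated data.

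Named in each culture comparison were the genes past the threshold and the 3 largest differences each way, between slides the 4 largest each way, between cultures and tissues the 8 largest each way, and between tissues the 5 largest each way, besides a list of anchor genes; a few of these genes are not reported here. The channel genes, anchors and other lists were chosen with earlier results of these data known. The growth protocol's steps add up to a switch 1 day earlier than the day 8 of the sample labels, which were followed.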

Additional observations from a re-analysis of the deposited data

How the results depend on the processing

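For the agonist cultures compared with the inhibitor-only cultures, the count of channel genes past the threshold was 0 without the block and moved with the model. Of all genes, 2 passed without the block, 820 with it and 530 with a variance trend and no block. With the block, 563 of all genes passed under quantile normalization, 541 with the deposited log2 values and 1160 with normexp. The channel count was 5 with the replicate block (the slide) and 4 with a variance trend and no block (2 of them among the 5). In alternatives chosen after seeing the data it was 3 with the block and quantile normalization and 4 with the block and the deposited log2 table. It was 7 with the block and normexp, another of these alternatives, where Kcnd3 and Cacna1i joined all 5. It was 0 whichever single array was left out, with or without the block; in the other 4 treatment comparisons no channel gene passed with or without the block. The median difference of the channel genes in CHIR_8-16 compared with WiBi_0-11 was -0.14, and -0.26 when arrays were centred on their median; without one array at a time it ran from -0.32 to -0.073. In CHIR_8-16 compared with CHIR_11-16 it was -0.01, and -0.17 with that centring, under which the median of all genes was -0.12; without one array at a time it ran from -0.16 to 0.040. The difference of Scn3b there ran from -0.20, without replicate 1 of CHIR_8-16, to 2.29, without its replicate 2. The causes were not tested, and the other 158 counts and medians stayed within 1.5 times the reported count or within the 0.106 spread of the median between replicates. Between cultures and tissues the deposited table gave 4 channel genes higher and 21 lower, and quantile normalization 4 and 19, in place of 7 and 18. Dim genes such as Kcnk7, Kcnk5, Kcns1 and Kcnh1 are limited by signal over background.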
